A study of Macaca mulatta with 51 samples.

Results

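The washout change of subcutaneous adipose tissue (AT) was set against the washout change of gastrocnemius skeletal muscle (SM) in diet-induced obese (DIO) rhesus macaques. All animals were obese, non-diabetic males and ovariectomized females kept on a high-fat, high-sucrose diet, and all were injected daily with native human FGF21 for 12 weeks. Punch biopsies of both tissues were taken before treatment (Pre), at the end of treatment (Post) and 16 weeks after the last dose (Wash), and polyadenylated RNA was sequenced. No group of animals went without FGF21. The washout change therefore holds lasting effects of FGF21, weight loss and regain, time and age together, and these cannot be told apart.

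The comparison used the 31 Pre and Wash libraries among the 48 libraries with counts. These were 10 AT Pre, 8 AT Wash, 6 SM Pre and 7 SM Wash libraries. Both time points were present for 8 animals in AT and for 6 animals in SM, and 5 animals had all 4 libraries. For each of the 12209 genes expressed in both tissues, of 16033 genes counted, the SM change from Pre to Wash was subtracted from the AT change. This difference of changes is positive where a gene moved up in AT relative to SM.

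AT stores triglyceride in adipocytes and releases fatty acids and hormones, whereas skeletal muscle is built of contractile fibres that burn glucose and fatty acids. FGF21 acts through an FGF receptor together with the co-receptor beta-Klotho, which is made in adipocytes and is scarce in muscle. A punch biopsy holds all cells of the tissue, so fewer cells of a type and less RNA per cell cannot be told apart in these libraries.

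Total counts ranged from 14455195 to 23940980 per library with a median of 18164556. The labels matched the markers, since 11 adipocyte genes summed to 16100 to 51500 CPM (counts scaled to a common library total) in AT and to 825 to 2050 CPM in SM, while 14 muscle genes summed to 45.5 to 474 CPM in AT and to 102000 to 175000 CPM in SM. SM libraries varied more than AT libraries, with a biological coefficient of variation of 0.304 against 0.186. This is the spread left after each animal's own level and the shared washout change were fitted. The numbers of the library identifiers fell into a first, a middle and a last series, whose meaning is not given in the sources used here. The first series held 3 of the 6 SM Pre libraries and 1 of the 8 AT Wash libraries, and no AT Pre or SM Wash library. That AT Wash library, of animal 26292, stood apart from the other 7 AT Wash libraries in many of the genes below and lay nearer to AT Pre.

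The washout change differed between AT and SM for 2719 genes, 22.3% of those tested. A call needed an adjusted p under 0.05 together with a log2 difference beyond 0.26 either way (edgeR's quasi-likelihood test, Benjamini-Hochberg adjustment over the 12209 genes, used for all adjusted p-values given here). The difference was positive for 1410 genes (11.5%) and negative for 1309 genes (10.7%). Of the 2719 genes, 2609 (21.4% of those tested) had changes of opposite sign in the 2 tissues, with 1321 up in AT and down in SM and 1288 down in AT and up in SM. Opposite signs made up 96% of the called genes and 60.4% of all genes tested. A large difference of changes favours opposite signs by its own construction. The other called genes shared a sign, with 87 up in both tissues and 23 down in both. When libraries were scaled by their totals alone, the split moved to 2666 positive and 712 negative differences. That scaling shifted the median difference over all genes from 0.04 to 0.27.

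**Figure D1:**
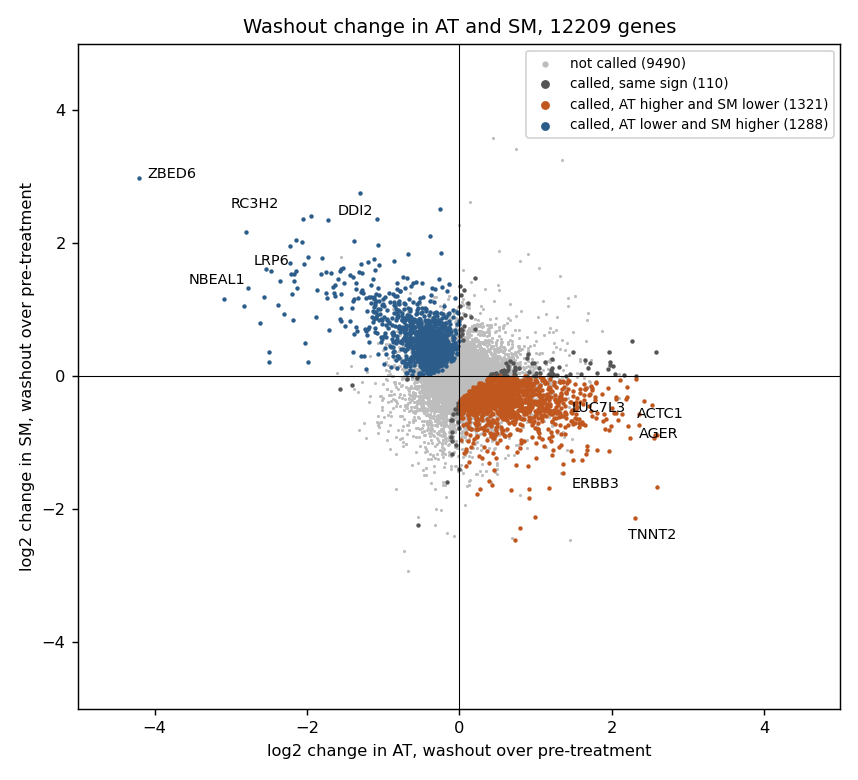
Log2 change from Pre to Wash in AT (x axis) and in SM (y axis), 1 point per gene for 12209 genes; grey points were not called and coloured points were called for a difference of changes. Called genes fill the upper left of the plot (1288 genes, ZBED6 farthest out) and the lower right (1321 genes, with TNNT2 at the edge), and 110 called genes lie at upper right or lower left.

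Across genes the AT and SM changes had a Pearson correlation of -0.34 and a Spearman correlation of -0.31 (n = 12209 genes, a description only, since genes of one library share its depth and quality). Typical sizes were moderate. The 1321 genes up in AT and down in SM had a median log2 change of 0.54 in AT and -0.37 in SM, and the 1288 genes of the opposite kind had medians of -0.39 and 0.48. Over all genes tested the median change was -0.03 in AT and -0.04 in SM.

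Each tissue's own change was tested in the same fit. In AT 1334 genes rose (10.9%) and 853 fell (6.99%), and in SM 551 rose (4.51%) and 267 fell (2.19%). Of the 2609 genes with opposite signs, 330 passed the test in both tissues, 281 of them down in AT and up in SM and 49 up in AT and down in SM. A larger number, 1310 called genes, passed in AT alone, 365 passed in SM alone and 714 passed in neither. The SM calls depended on how the spread was estimated. With the spread shared between tissues 818 genes were called in SM, with weights per tissue 213, and with SM fitted on its own 5, and the 330 genes passing in both tissues became 128 and 5. The count for the difference itself was 2267 with weights per tissue and 3091 with separate fits. The 3091 came from a normal approximation on the 2 estimates, which takes their standard errors as known. It calls genes more readily than the quasi-likelihood test, so 3091 cannot be set against the other counts.

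Genes that were lower in AT and higher in SM at washout held the largest differences. ZBED6, a transcriptional repressor derived from a DNA transposon, had the most negative difference of all genes named here. It lay between 11.1 and 42.8 CPM in AT Pre (median 29.5) and between 0.844 and 8.07 CPM in AT Wash (median 1.3). In SM it lay between 0.652 and 16.5 CPM in Pre (median 5.43) and between 28.4 and 62.5 CPM in Wash (median 35.9). The groups did not overlap in either tissue, and AT and SM traded places. The log2 change was -4.21 ± 0.47 (SE) in AT and 2.99 ± 0.51 in SM, a difference of -7.20 ± 0.70 (adjusted p = 1.92e-05). All 8 AT pairs fell, with log2 changes of -5.07 to -2.18, and all 6 SM pairs rose, by 0.87 to 6.04. In human annotation ZBED6 sits inside an intron of ZC3H11A, so reads of the 2 genes can be hard to separate. ZC3H11A itself changed by 0.27 in AT and -0.03 in SM, with no call for the difference (adjusted p = 0.17).

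LRP6, a co-receptor for Wnt ligands, showed the same exchange at a higher level in AT. Its levels were 50.4 to 154 CPM in AT Pre (median 89.9) and 13.9 to 68.1 CPM in AT Wash (median 19.9), and these groups overlapped only through the AT Wash library of animal 26292. In SM they were 4.65 to 11.1 CPM in Pre (median 6.68) and 19.5 to 30.2 CPM in Wash (median 24.1), without overlap. The changes of -1.99 ± 0.18 and 1.79 ± 0.21 gave a difference of -3.78 ± 0.28 (adjusted p = 1.92e-06).

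DDI2, a protease that activates the transcription factor controlling proteasome genes, had the smallest adjusted p of all genes tested (1.22e-06) with a difference of -4.07 ± 0.28. It went from 3.63 to 8.14 CPM (median 6.01) in AT Pre to 1.26 to 5.27 CPM (median 1.57) in AT Wash. In SM it went from 1.71 to 3.13 CPM (median 2.07) to 8.14 to 15.8 CPM (median 10.5), and only the AT groups overlapped.

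RC3H2, also named Roquin-2, binds stem-loops in mRNAs and promotes their decay. It fell in AT from a median of 21.3 CPM to 4.96 CPM and rose in SM from 3.75 to 20.9 CPM, with changes of -2.06 ± 0.25 and 2.37 ± 0.30 (difference -4.42 ± 0.39, adjusted p = 7.8e-06). PRKAR2A, a regulatory subunit of protein kinase A, was separated in both tissues, with 14.5 to 36.3 CPM in AT Pre against 3.21 to 14.1 CPM in AT Wash and 6.06 to 33.5 CPM in SM Pre against 43.3 to 77 CPM in SM Wash. Its difference was -3.23 ± 0.34. CACNA2D1, an auxiliary subunit of voltage-gated calcium channels, rose in SM from 27.8 to 98.8 CPM to 150 to 273 CPM and fell in AT from a median of 53.9 to 14.1 CPM (difference -4.19 ± 0.39).

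Other genes chosen by the same rule were ZNF106 (a zinc finger protein of nerve and muscle, difference -4.19), SKIL (a SMAD co-repressor, -3.58), HIPK3 (a nuclear protein kinase, -3.32) and MGAT5 (an enzyme that branches N-glycans, -4.15). All of them fell in AT and all but MGAT5 rose in SM, where the change of MGAT5 was 1.62 ± 0.51 (adjusted p = 0.068). NBEAL1, a BEACH domain protein, had one of the 3 most negative differences at -4.25 ± 0.51, most of it in AT, where it dropped from a median of 20 to 2.81 CPM without overlap, while the SM change was 1.17 ± 0.40 (adjusted p = 0.085).

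**Figure D2:**
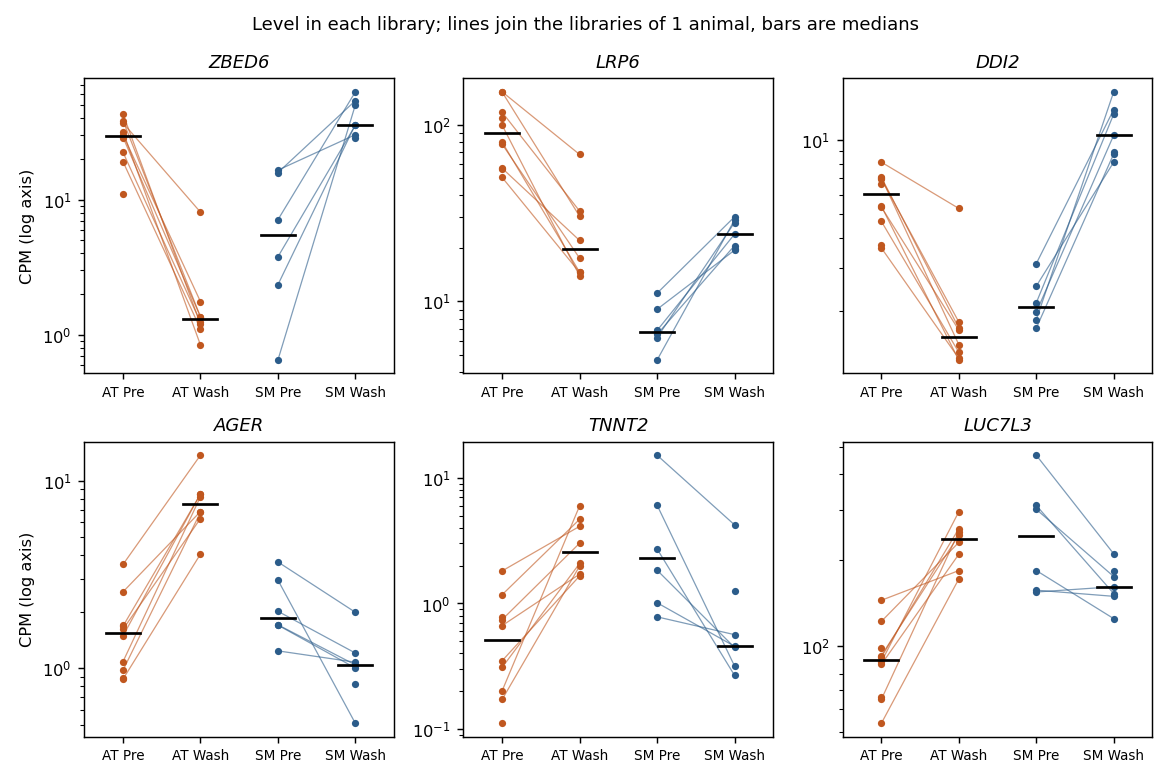
CPM on a log axis for 6 genes in each AT (orange) and SM (blue) library; thin lines join the Pre and Wash libraries of 1 animal and black bars are group medians. ZBED6, LRP6 and DDI2 fell in all AT pairs and rose in all SM pairs, whereas AGER, TNNT2 and LUC7L3 rose in all 8 AT pairs and were lower at Wash in 6, 6 and 5 of the 6 SM pairs.

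Among genes up in AT and down in SM, the largest opposite changes were found at low levels. TNNT2, the troponin T of heart muscle, was at 0.111 to 1.82 CPM in AT Pre (median 0.508) and at 1.65 to 5.98 CPM in AT Wash (median 2.55). In SM it was at 0.782 to 15.1 CPM in Pre (median 2.28) and at 0.268 to 4.22 CPM in Wash (median 0.456). Both pairs of groups overlapped, and the highest SM library at each time point was that of animal 23004. The changes of 2.31 ± 0.39 and -2.14 ± 0.46 passed the test in both tissues (difference 4.45 ± 0.61, adjusted p = 0.00012). ACTC1, the cardiac alpha-actin, had a difference of 2.96 ± 0.69 that rested on AT, where it was higher at Wash in 7 of 8 pairs and reached 29.9 CPM in animal 21189, with an SM change of -0.74 ± 0.41 (adjusted p = 0.27).

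AGER, the receptor for advanced glycation end products, was at 0.875 to 3.58 CPM in AT Pre (median 1.55) and at 4.06 to 13.7 CPM in AT Wash (median 7.53), without overlap. In SM it was at 1.24 to 3.69 CPM in Pre (median 1.86) and at 0.509 to 1.99 CPM in Wash (median 1.04). AGER rose by 2.24 ± 0.21 in AT and fell by 0.93 ± 0.26 in SM, a difference of 3.17 ± 0.34 (adjusted p = 2.37e-05).

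The other 8 genes of this kind rose in AT, apart from ERBB3, and none of the 8 passed the test in SM. They were ERBB3, a neuregulin receptor (difference 2.81 ± 0.84, lost under 8 of 28 alternatives), RCVRN, a calcium sensor of photoreceptors (2.75 ± 0.60), OVGP1, an oviduct glycoprotein (2.59 ± 0.53), ANKDD1B (2.40 ± 0.47), RNF112 (2.25 ± 0.46), DDX4, an RNA helicase of germ cells (2.16 ± 0.44), CELF6, an RNA-binding splicing regulator (2.04 ± 0.48), and EPX, the peroxidase of eosinophils (1.90 ± 0.40). Their SM changes lay between -1.46 and -0.84 with adjusted p-values of 0.073 to 0.172. Several are known from tissues other than AT and muscle, and their mean levels over the libraries of a tissue were between 1.02 and 8.88 CPM.

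Functions were described with lists of genes, for which the counts are given beside the 22.3% called over all genes tested and without a test of the list. Genes of the spliceosome and its SR-type regulators, which remove introns from pre-mRNA, were most often higher in AT. Of 41 tested, 20 had a positive and 2 a negative difference (53.7% called), and the median change was 0.21 in AT and -0.18 in SM. In AT 16 rose and 1 fell, and in SM 6 fell and none rose. LUC7L3, a component of U1 snRNP assembly, was at 53.5 to 145 CPM in AT Pre (median 89.6) and at 172 to 295 CPM in AT Wash (median 238), while in SM it was at 155 to 467 CPM in Pre (median 243) and at 125 to 210 CPM in Wash (median 161). The AT groups were separate and the SM groups overlapped, with changes of 1.36 ± 0.17 and -0.59 ± 0.19 and a difference of 1.95 ± 0.26 (adjusted p = 9.82e-05).

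SRSF5, a serine and arginine rich splicing factor, rose by 0.79 in AT and fell by 0.71 in SM, with a difference of 1.5 ± 0.20 (adjusted p = 0.00012). SNRNP70, the 70K protein of U1 snRNP, differed by 1.42 ± 0.23 and the helicase DDX5 by 1.22 ± 0.22, both through rises in AT. The 2 spliceosome members that moved the other way were SNRNP200 (-0.64 ± 0.14) and PRPF8 (-0.39 ± 0.13), large proteins of the catalytic U5 particle. The list median was above 0 in 8 of 8 AT pairs, between 0.05 and 0.29, and above 0 in 1 of 6 SM pairs, between -0.46 and 0.06.

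Cytosolic ribosomal protein genes also had positive differences, mostly through SM. Of 76 tested, 23 had a positive and none a negative difference (30.3% called), the median change was 0.10 in AT and -0.32 in SM, and 75 of the 76 differences were positive. The list median was above 0 in 4 of 8 AT pairs, from -0.20 to 0.51, and in 1 of 6 SM pairs, from -0.77 to 0.13. Only 2 passed the test in AT, both up, and 8 passed in SM, all down. RPL34 was at 47.2 to 94.2 CPM in AT Pre (median 75.1) and 67.7 to 109 CPM in AT Wash (median 87.5), and at 33.3 to 61.6 CPM in SM Pre (median 39.7) and 24.4 to 35.1 CPM in SM Wash (median 29.4). Both pairs of groups overlapped. RPL34 had the largest difference of the list at 0.89 ± 0.19 (adjusted p = 0.0034), followed by RPL31 at 0.83 ± 0.19. Ribosomal protein genes have many near-identical copies in the genome, so their counts are uncertain where reads could be split. The number called fell to 0 when only the 5 animals with all 4 libraries were used, to 6 without animal 20275, to 7 with the Post libraries in the fit, to 8 without animal 21189 and to 9 without animal 19832. It was 12 with no block per animal, without animal 23004, and without the AT Pre library of animal 20275, and 13 and 15 without animals 21866 and 20261. It rose to 36 without animal 24849 and to 51 with totals alone as the scale, and the list median stayed between 0.30 and 0.71 under 28 alternatives.

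**Figure D3:**
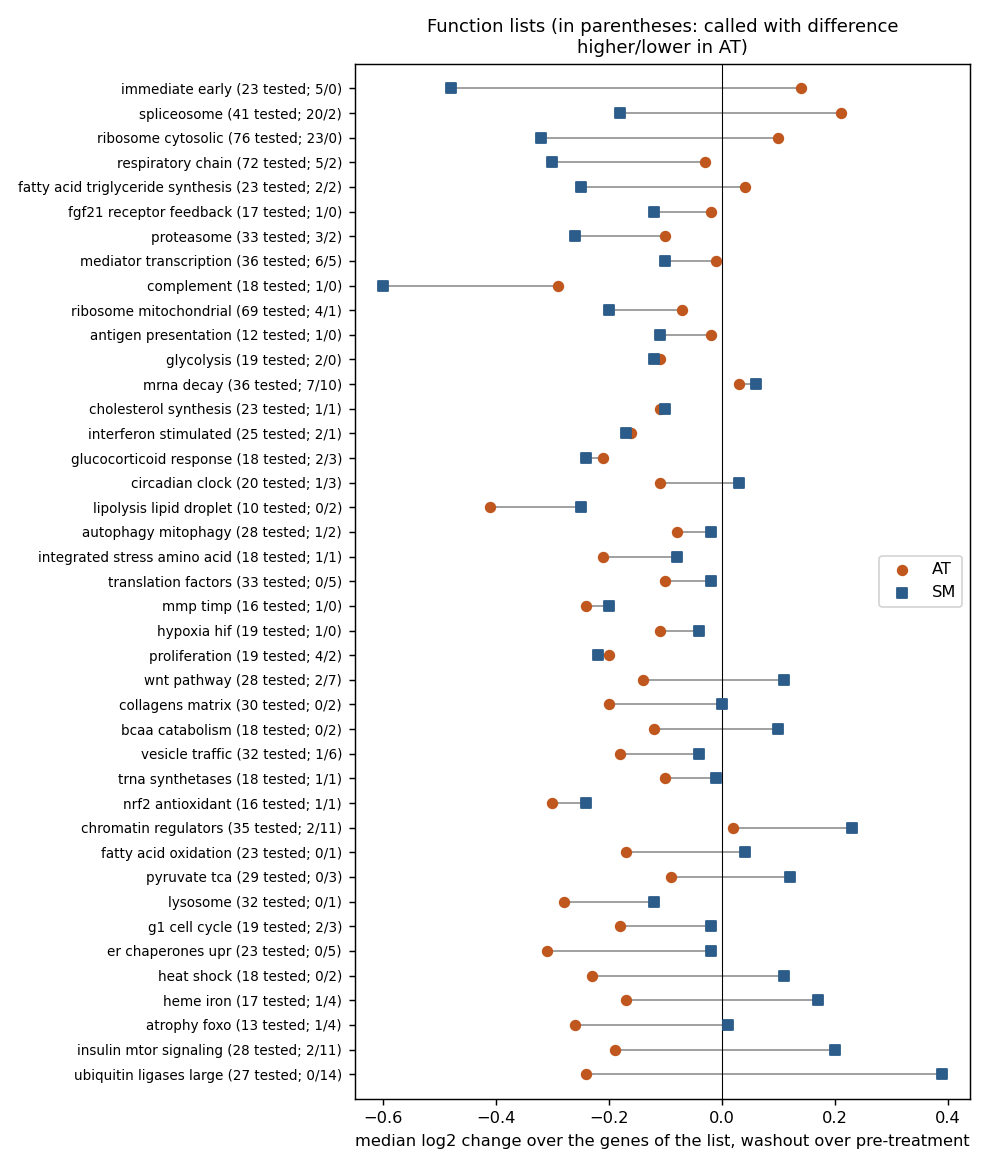
Median log2 change from Pre to Wash over the genes of each function list in AT (orange circles) and SM (blue squares), ordered by the median difference; parentheses give the number tested and the numbers called with a positive and a negative difference. Immediate early, spliceosome and cytosolic ribosome lists stand at the top with AT above 0 and SM below 0, and large ubiquitin ligases and insulin signalling stand at the bottom with AT below 0 and SM above 0.

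Large ubiquitin ligases, which attach ubiquitin to substrates and many of which are giant HECT or RING proteins, stood at the other end. Of 27 tested, 14 had a negative difference and none a positive one (51.9% called), with a median of -0.24 in AT and 0.39 in SM. In AT 7 fell and in SM 11 rose. CBL, a RING ligase that ends receptor tyrosine kinase signalling, was at 35.9 to 59.2 CPM in AT Pre (median 45.2) and at 12.5 to 39.2 CPM in AT Wash (median 17.3), and at 4.21 to 8.63 CPM in SM Pre (median 5.45) and 7.35 to 12 CPM in SM Wash (median 8.32). The groups overlapped in both tissues, in AT through the library of animal 26292. CBL fell by 1.38 ± 0.16 in AT and had an SM change of 0.64 ± 0.19 (adjusted p = 0.058), with a difference of -2.01 ± 0.25 (adjusted p = 6.18e-05). MYCBP2 (-1.30 ± 0.16) and HERC1 (-1.14 ± 0.17) fell in AT and rose in SM, both past the test. The list median was below 0 in 8 of 8 AT pairs, from -0.43 to -0.02, and above 0 in 6 of 6 SM pairs, from 0.01 to 0.81.

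Insulin and mTOR signalling, which couples insulin receptor activation to glucose uptake, growth and protein synthesis, had 11 negative and 2 positive differences among 28 genes tested (46.4% called). The median change was -0.19 in AT and 0.20 in SM, and 5 genes fell and 2 rose in AT while 4 rose in SM.

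The kinase GSK3B, which phosphorylates glycogen synthase and beta-catenin, differed by -1.74 ± 0.22 and PIK3CA, the catalytic subunit of PI3-kinase, by -1.60 ± 0.18, each with a fall in AT and a rise in SM. IRS1 (-0.94 ± 0.25) and MTOR (-0.86 ± 0.22) were called for the difference but passed in neither tissue alone. The positive differences were those of GRB10, an inhibitor of insulin receptor signalling that rose by 0.98 in AT (difference 0.78 ± 0.16), and TSC2, an inhibitor of mTOR (difference 0.42). INSR, the insulin receptor, had a difference of -0.30 ± 0.19 and no call (adjusted p = 0.28). The list median was at or below 0 in all 8 AT pairs and above 0 in all 6 SM pairs.

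**Figure D4:**
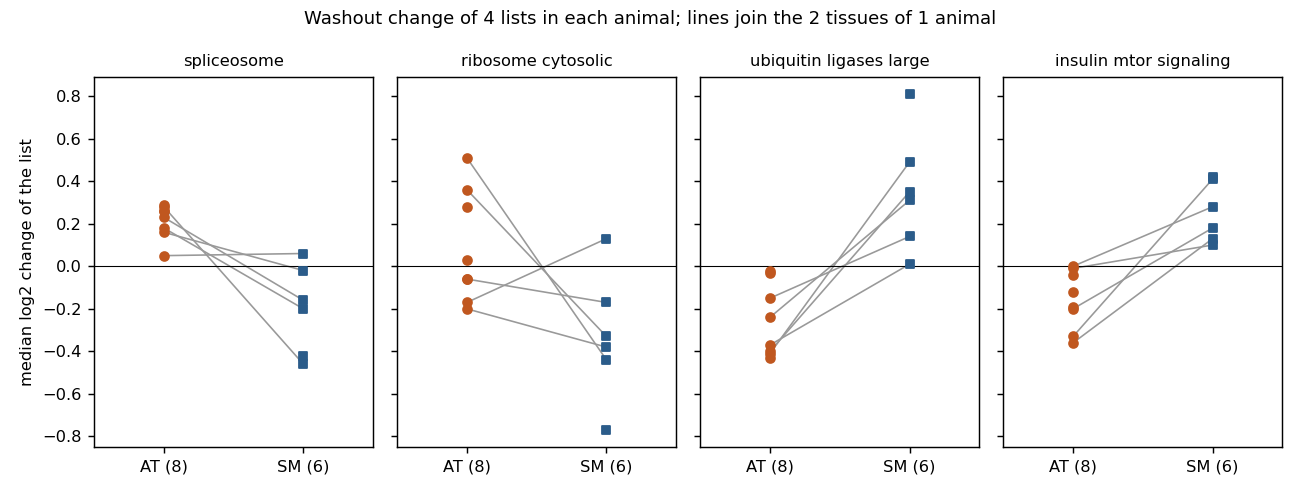
Median log2 change from Pre to Wash of 4 function lists in each animal, for 8 AT pairs (orange circles) and 6 SM pairs (blue squares), with grey lines joining the tissues of the 5 animals that had all 4 libraries. Spliceosome medians lie above 0 in every AT pair and ubiquitin ligase medians above 0 in every SM pair, while cytosolic ribosome medians in AT range from -0.20 to 0.51.

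Chromatin regulators had 11 negative and 2 positive differences among 35 tested (37.1% called), and the movement lay mostly in SM, where 11 rose and none fell, against 3 up and 2 down in AT. KDM5A, a demethylase of histone H3 lysine, went from a median of 30.7 to 10 CPM in AT without overlap and from 9.49 to 21.3 CPM in SM, with a difference of -2.84 ± 0.27 (adjusted p = 1.48e-05). ASH1L, a histone methyltransferase, fell by 0.65 in AT and rose by 0.89 in SM. The positive differences belonged to EZH2 (0.98), the methyltransferase of Polycomb, and HDAC2 (0.38), a histone deacetylase. The list median was positive under 1 of 28 alternatives and ranged from -0.36 to 0.09.

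Genes of mRNA decay split both ways, with 7 positive and 10 negative differences among 36 tested (47.2% called). The deadenylase subunits CNOT7 (-1.08), CNOT1 (-0.90), CNOT4 (-0.80) and CNOT6 (-0.52), the exonuclease XRN1 (-0.63) and RC3H2 were on the negative side. The deadenylases PAN2 (1.37) and PAN3 (0.89) and the paralogue RC3H1 (1.19) were on the positive side, with RC3H1 and RC3H2 in opposite directions in both tissues. Mediator and RNA polymerase II genes also split, with 6 positive and 5 negative differences among 36 (30.6% called). MED13L, MED13 and MED1, and the largest polymerase subunit POLR2A, were negative, and the small subunits POLR2G, POLR2H and POLR2K were positive. Whether the direction of a difference went with transcript length, here or in the other lists, was not tested. MED13L rose in SM from 53.6 to 80.7 CPM to 95.1 to 125 CPM without overlap (difference -1.07 ± 0.19).

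Wnt pathway genes had 7 negative and 2 positive differences among 28 tested (32.1% called) and a median of -0.07 that turned to 0.16 with library totals as the scale, led by LRP6 and followed by GSK3B, the receptor FZD1 (-1.42) and the scaffold APC (-1.20). Of 32 genes of vesicle traffic 6 were negative and 1 positive (21.9% called, near the share over all genes), with SEC24A, a COPII coat protein, at -0.99 ± 0.18. Among 23 endoplasmic reticulum chaperones and unfolded protein response genes 5 were negative and none positive (21.7% called, also near that share). ERN1, the stress sensor IRE1 alpha, rose by 1.18 ± 0.25 in SM and changed by -0.52 ± 0.21 in AT (adjusted p = 0.094). Among 33 translation factors 5 were negative and none positive (15.2% called, below the share over all genes), led by EIF3A at -1.28 ± 0.21.

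Energy metabolism held fewer called genes than the 22.3% over all genes. Of 72 respiratory chain genes 7 were called (9.72%), with COX7A2 (0.85 ± 0.22), NDUFA3 (0.79), COX7B (0.73), ATP5E (0.71) and COX6C (0.70) positive and SDHC (-0.94 ± 0.25) and NDUFS1 (-0.90 ± 0.26) negative. The respiratory chain median was -0.03 in AT and -0.30 in SM, and 56 of the 72 differences were positive. Of 29 genes of pyruvate use and the citric acid cycle 3 were negative, led by OGDH, a subunit of the oxoglutarate dehydrogenase complex, at -0.86 ± 0.20. Fatty acid oxidation had 1 call among 23 genes, ACSL1, an acyl-CoA synthetase, at -0.59 ± 0.20 (adjusted p = 0.047). That call was lost under 15 of 28 alternatives.

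Fatty acid and triglyceride synthesis had 2 positive and 2 negative differences among 23 genes (17.4% called). MLXIPL, the carbohydrate-sensing transcription factor ChREBP, was at 37.3 to 85.7 CPM in AT Pre and at 69.2 to 216 CPM in AT Wash. It rose in AT by 1.0 ± 0.22, with an SM change of -0.26 ± 0.26 and a difference of 1.26 ± 0.35. ABHD5, the co-activator of adipose triglyceride lipase, differed by -1.02 ± 0.24, SREBF2, a regulator of cholesterol synthesis, by -0.93 ± 0.29, and DBT, a subunit of the branched-chain ketoacid dehydrogenase, by -1.04 ± 0.26. None of these 3 passed the test in a single tissue, and the call of SREBF2 was lost under 9 of 28 alternatives. ENO2, a glycolytic enolase, rose in AT by 1.20 ± 0.25 (difference 1.73 ± 0.40).

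Genes of FGF21 reception and feedback had 1 call among 17 tested (5.88%, against 22.3% over all genes). It was the early response gene IER3 (0.81 ± 0.26), whose call was lost under 13 of 28 alternatives. KLB, the gene of beta-Klotho, changed by -0.74 in AT and -1.05 in SM (difference 0.31, adjusted p = 0.78), with a mean of 0.78 CPM in SM Pre. FGFR1 changed by 0.06 in AT and -0.13 in SM (difference 0.19, adjusted p = 0.75).

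Immediate early genes respond to stimuli within minutes. Among 23 tested there were 5 positive differences and no negative one (21.7% called, near the 22.3% over all genes). All 5 fell in SM with little movement in AT. These were ZFP36, a destabiliser of inflammatory mRNAs (SM change -1.59 ± 0.30), the phosphatase DUSP1 (-1.16), the cytokine inhibitor SOCS3 (-1.13), MYC (-0.84) and IER3 (-0.72). Their AT changes lay between -0.16 and 0.09. The median of the whole list was above 0 in 1 of 6 SM pairs, from -1.05 to 0.37. In AT it was above 0 in 5 of 8 pairs, from -0.34 to 0.56. ZFP36 went from 15.4 to 72.2 CPM in SM Pre (median 25.5) to 4.77 to 17.4 CPM in SM Wash (median 10.3), and these groups overlapped.

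Glucocorticoid response genes were called in both directions, 2 positive and 3 negative among 18 (27.8% called, near the 22.3% over all genes). ZBTB16, a zinc finger target of the glucocorticoid receptor, rose in SM from 23.7 to 41.2 CPM to 59.1 to 113 CPM without overlap and fell in AT by 0.47 ± 0.15 (difference -1.66 ± 0.23, adjusted p = 0.00014). FKBP5, a co-chaperone of the receptor, differed by -1.40 ± 0.34 without passing in either tissue. The clock transcription factor CLOCK fell by 0.61 ± 0.09 in AT and rose by 0.38 ± 0.11 in SM (difference -0.99 ± 0.14). TRIM63, the muscle ubiquitin ligase MuRF1, fell in SM by 0.81 ± 0.22 with an AT change of 0.58 ± 0.21 (adjusted p = 0.066) and a difference of 1.38 ± 0.30.

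Proliferation genes had 4 positive and 2 negative differences among 19 tested (31.6% called), with a median change of -0.20 in AT and -0.22 in SM. In AT 4 fell and 2 rose, and in SM 1 fell and none rose. CCNA2 (1.54 ± 0.30), AURKB (1.30 ± 0.33), PLK1 (1.16) and CDK1 (1.13) were positive, and the kinetochore gene CENPF (-1.54 ± 0.37) and MCM2 (-0.48) were negative. CCNA2, cyclin A2, was at 2.18 to 9.34 CPM in AT Pre and 6.17 to 12.8 CPM in AT Wash, and at 1.78 to 2.52 CPM in SM Pre and 0.826 to 1.95 CPM in SM Wash. It rose in AT and fell in SM, and the groups overlapped in both tissues.

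Immune genes were seldom called. Of 19 macrophage markers none was called, although their median was -0.72 in AT and -0.34 in SM. Of 25 interferon-stimulated genes 3 were called (12%, against 22.3% over all genes). VEGFA, an angiogenic growth factor, rose in AT by 0.71 ± 0.12 and changed by 0.08 ± 0.13 in SM (difference 0.63 ± 0.18). COL6A3, a chain of collagen VI, had a difference of -2.57 ± 0.80 that passed in neither tissue and was lost under 12 of 28 alternatives.

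Some markers of other cell types and of fibre types stood at other levels at washout. The summed level of 9 erythroid genes went from 8.41 to 128 CPM in SM Pre to 61.6 to 1590 CPM in SM Wash, and from 329 to 10600 CPM to 460 to 12100 CPM in AT. Of 5 erythroid genes tested, 2 rose in SM past the test, where 4.51% of all genes tested did so. Of the 5, 1 was called for the difference, up in AT and down in SM, beside 22.3% of all genes tested. Slow-fibre genes (9 genes) went from 10200 to 18000 CPM to 11400 to 42500 CPM in SM, with overlap. None of the 9 was called for the difference or passed the test in SM. The 14 general muscle genes went from 102000 to 132000 CPM to 127000 to 175000 CPM in SM. In AT the same 14 muscle genes went from 48 to 194 CPM (median 70.4) to 45.5 to 474 CPM (median 161), beside the rise of TNNT2 and the higher ACTC1 in AT, and their median change was above 0 in 6 of 8 AT pairs. Of 13 tested, 2 rose in AT, where 10.9% of all genes tested did so. The intermediate filament gene DES was 1 of the 2 (2.09). The sum of 9 satellite cell and regeneration genes in SM went from 192 to 675 CPM (median 430) to 171 to 387 CPM (median 218), with overlap. TTN, the giant sarcomere protein titin, was the 1 muscle gene of that list called, at -1.07 ± 0.35. Their part in the differences above was not tested.

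Each library was also summarised by a score, the mean log2 CPM of the 1288 genes down in AT and up in SM minus that of the 1321 genes of the opposite kind, relative to the Pre mean of its tissue. These genes were chosen on these libraries, so the scores of Pre and Wash only describe how evenly the libraries carry the pattern. Scores were -0.43 to 0.36 in AT Pre and -1.47 to -0.53 in AT Wash, and -0.76 to 0.46 in SM Pre and 0.72 to 1.09 in SM Wash, so that the groups did not overlap. The AT Wash library of animal 26292, from the first identifier series, had the score of -0.53, and the other 7 were at -0.995 or below. In SM Pre the 3 libraries of the first series scored 0.19 to 0.46 and the other 3 scored -0.76 to -0.05. In SM Post, which was not in the fit, the 5 libraries of the first series scored -0.02 to 0.75 and the 3 of the last series -0.78 to -0.15. The identifier series therefore moved with the score within SM Pre and within SM Post, and its part in the differences was not tested beyond the alternatives given here. Without the 4 libraries of the first series 3697 genes were called, of which 2396 were called in the same direction with all libraries. With the series as a covariate 2532 were called, 2107 of them in the same direction as without it. With a covariate per tissue 2487 were called, 1901 of them in the same direction. For the SM change these fits called 1016 and 986 genes. Of these, 572 and 474 were called in the same direction without the covariate, where 818 were called in all. Within pairs of a single series, 4 in AT and 2 in SM, 2671 were called, 1886 of them in the same direction as with all libraries. With 2 SM pairs the shared spread rested mostly on AT, the less variable tissue, and 1673 genes were called in SM against 818 with all libraries. The count of 2671 therefore cannot show that the result is stable to the series.

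**Figure D5:**
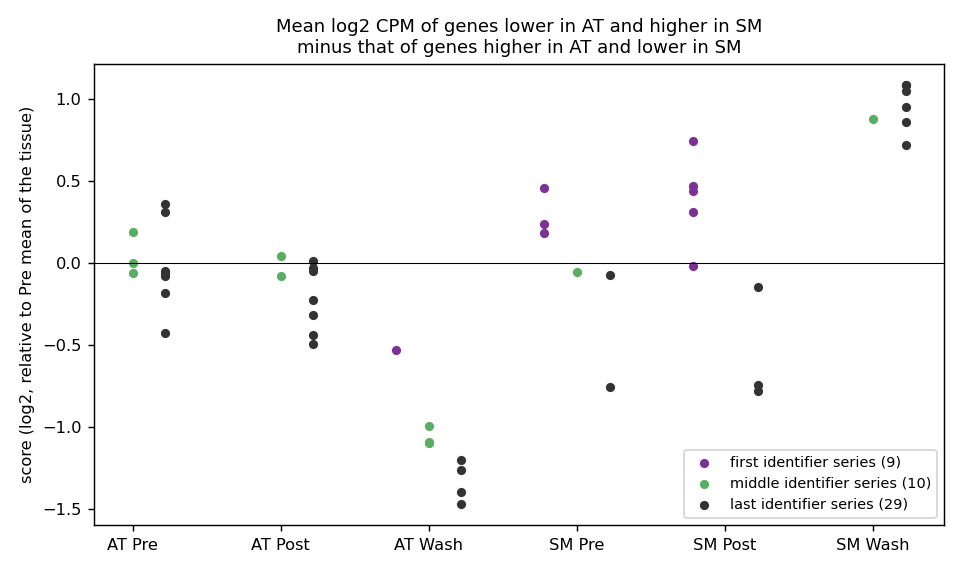
Score of each of 48 libraries, the mean log2 CPM of genes down in AT and up in SM minus that of genes up in AT and down in SM, relative to the mean of Pre in the same tissue; colours mark the series of library identifiers. AT Wash libraries lie at -0.53 or below and SM Wash libraries at 0.72 or above, while the Post libraries, which were not in the fit, range from -0.49 to 0.04 in AT and from -0.78 to 0.75 in SM.

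The Post libraries took no part in the fit. Their scores were -0.49 to 0.04 in 9 AT libraries, above all AT Wash libraries, and -0.78 to 0.75 in 8 SM libraries. The 1 SM library at 0.75, of the first identifier series, lay within the range of SM Wash. Most single genes were less separate. Of the 60 named genes, Post overlapped Wash for 52 in AT and 53 in SM, and overlapped Pre for all 60 in both tissues. The Post median was nearer to Pre than to Wash for 49 of 60 genes in AT and for 49 in SM. The score genes and the named genes were chosen on the Pre and Wash libraries, which sets those groups apart beforehand. Post was not counted over all genes tested, so its place between them is a description only. ZBED6 was among the genes apart from Wash in both tissues, at 21.9 to 35.7 CPM in AT Post, against at most 8.07 CPM in AT Wash, and at 1.15 to 22.9 CPM in SM Post, against at least 28.4 CPM in SM Wash. LRP6 was at 45 to 124 CPM in AT Post and 3.92 to 14.7 CPM in SM Post, the latter below all SM Wash libraries. LUC7L3 was at 57.2 to 154 CPM in AT Post, below all AT Wash libraries, and at 163 to 325 CPM in SM Post. CACNA2D1 went against this in AT, where Post (12.5 to 34.8 CPM, median 22.8) lay within the range of Wash (4.57 to 40.9 CPM) and its median below that of Pre (53.9 CPM). ZNF106 in SM Post spread from 156 to 2310 CPM and reached into the range of SM Wash (1370 to 2680 CPM).

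The genes with opposite signs were chosen in a fit on these same animal pairs, so how many pairs carry the fitted direction is a description and no support for it. Of the 2609 genes with opposite signs, 320 moved the same way in all 8 AT pairs and the opposite way in all 6 SM pairs, 216 of them down in AT. Of 60 named genes, 42 had the fitted direction of the difference in all 5 animals with 4 libraries. When only those 5 animals were used 1229 genes were called, and 737 with 1 difference of changes per animal. Leaving out animal 20275 gave 1616 genes for the difference, 1442 for the AT change, 118 for the SM change and 68 that passed in both tissues, and leaving out animal 22130 gave 1997 for the SM change and 539 in both tissues.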

How the data were processed

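Per the labels, punch biopsies were snap frozen, and TruSeq stranded mRNA libraries were sequenced as 50-nucleotide read pairs. STAR alignments to MacaM, a rhesus genome assembly, were made by the authors, who deposited a table of raw counts per gene, not normalized; the counting tool, its strand setting and the versions are not given in the sources used here. Of 16103 entries, 70 repeats of a gene were dropped. A gene was tested where 10% or more of the libraries in AT, and likewise in SM, reached 0.5 CPM. Libraries were scaled by TMM within tissue and fitted together in edgeR 4.0.16 (R 4.3.3; limma 3.58.1 and DESeq2 1.42.0 for alternatives) with a term per animal and tissue and a Wash effect in each tissue, leaving 12 residual degrees of freedom. A library without its partner was absorbed by its own term (AT Pre of animals 19832 and 20456, SM Wash of animal 20456). Libraries of 1 animal deviated together, with a median r of 0.51 in AT (8 of 8 pairs over 0.1) and 0.355 in SM (4 of 6). The fit was tested on simulated data of 12209 genes, in which 151 of 200 genes changed by 1.5 on the log2 scale were recovered and 24 unchanged genes were called. The 24 were a larger share of the calls than the adjusted p limit of 0.05 allows. Simulated libraries held no animal or series effect, so the pairing was not tested.

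Named genes had a mean of at least 1 CPM in each tissue and were the 10 called genes of each opposite kind with the largest smaller change, the 3 largest differences in each direction, and the called gene with the largest difference in each function list. The members and lists were chosen with earlier results of these data known. Group levels are CPM after TMM scaling, errors of log2 changes are standard errors, and changes per animal are differences of log2 CPM with a prior count of 2. Counting error weighs most for genes near the filter of 0.5 CPM, and its share of the standard errors was not measured. 3 SM samples were not analysed here, and the values of 4 genes are not reported here. Figures were drawn with matplotlib 3.10.9.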

Additional observations from a re-analysis of the deposited data

Results flagged for a closer look

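The effect of washout differed between the 2 tissues, by the test of the difference itself, for 2719 genes. Each gene listed in this section was among them. Values are AT minus SM differences of log2 changes. Among genes up in AT and down in SM they were 4.45 for TNNT2, 3.17 for AGER, 2.81 for ERBB3, 2.75 for RCVRN, 2.59 for OVGP1, 2.40 for ANKDD1B, 2.25 for RNF112, 2.16 for DDX4, 2.04 for CELF6 and 1.90 for EPX, and ACTC1 had 2.96. Among genes down in AT and up in SM they were -7.20 for ZBED6, -4.42 for RC3H2, -4.19 for both ZNF106 and CACNA2D1, -4.15 for MGAT5, -4.07 for DDI2, -3.78 for LRP6, -3.58 for SKIL, -3.32 for HIPK3 and -3.23 for PRKAR2A, and NBEAL1 had -4.25.

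Members of the function lists with a positive difference were LUC7L3 (1.95), ENO2 (1.73), CCNA2 (1.54), ADAMTS10, a metalloproteinase of the microfibril matrix (1.51), ZFP36 (1.43), TRIM63 (1.38), MLXIPL (1.26) and DDIT3, the stress factor CHOP (0.96). Smaller positive values were found for RPL34 (0.89), IER3 (0.81), CFI, complement factor I (0.81), MRPS18C, a mitochondrial ribosomal protein (0.72), VEGFA (0.63) and TAP1, the peptide transporter of antigen presentation (0.60).

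Members with a negative difference included KDM5A (-2.84), COL6A3 (-2.57), CBL (-2.01), ERN1 (-1.70), ZBTB16 (-1.66), TFRC, the transferrin receptor (-1.40), EIF3A (-1.28) and RBL1, a retinoblastoma relative (-1.20). Next came CTSB, the lysosomal protease cathepsin B (-1.07), MED13L (-1.07), HSPA4, an HSP70 relative (-1.05), DBT (-1.04), ABHD5 (-1.02), SEC24A (-0.99), CLOCK (-0.99), SDHC (-0.94), SREBF2 (-0.93) and OGDH (-0.86). The smallest were those of PARK2, the mitophagy ligase parkin (-0.77), TXNRD1, thioredoxin reductase (-0.77), EPRS, a tRNA synthetase (-0.66) and ACSL1 (-0.59).

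In 22 of 92 groups of libraries checked, the highest library lay apart from the others by Dixon's limit, where chance gives about 5% for independent normal values. CPM need not be normal and the groups share libraries, so 22 of 92 does not measure an excess over that rate. Of the 22, 9 were the AT Wash library of animal 26292, from the first identifier series, in genes that fell in AT. It held 8.07 CPM of ZBED6, 13.2 of RC3H2, 217 of ZNF106, 40.9 of CACNA2D1, 68.1 of LRP6, 21.1 of SKIL, 5.27 of DDI2, 20.3 of MGAT5 and 125 of HIPK3. Without animal 26292 the difference was called for 2586 genes.

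The libraries of animal 23004 were highest for TNNT2 in SM Pre (15.1 CPM) and SM Wash (4.22 CPM) and for ERBB3 in AT Pre (11.7 CPM). Animal 22130 was highest in SM Wash for RCVRN (2.26 CPM), ANKDD1B (3.28 CPM) and MGAT5 (3.7 CPM), and for DDX4 in AT Wash (6.84 CPM) and SM Pre (7.5 CPM). Animal 21189 was highest in AT Wash for AGER (13.7 CPM) and in AT Pre and AT Wash for ACTC1 (7.42 and 29.9 CPM). The remaining 2 were CELF6 in AT Pre of animal 24849 (9.16 CPM) and CACNA2D1 in AT Pre of animal 20275 (125 CPM).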

How the results depend on the processing

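The direction of the difference was kept for all 60 named genes under the 28 alternatives, wherever a gene passed the filter. The count of 2719 genes fell to 1229 (1185 with opposite signs) with the 5 animals that had all 4 libraries and to 737 (718) with 1 difference per animal in limma. Leaving out each animal gave 1616 to 3469 genes for the difference, 1554 to 3227 with opposite signs, 1442 to 2471 for the AT change and 118 to 1997 for the SM change. The lowest of each came without animal 20275, and the SM count was also 229 without 19832, 404 without 23004, 430 without 21189, 1270 without 24849 and 1997 without 22130. The AT count was 3841 with voomWithQualityWeights, 3351 with weights per tissue and 1089 in the 5 animals. The SM count of 818 was the least stable, with 1615 under voomWithQualityWeights, 213 with weights per tissue, 1462 with DESeq2, 5 in a fit of SM alone (1922 genes had an unadjusted p under 0.05), 1246 with library totals as the scale, 337 with the Post libraries in the fit, 95 in the 5 animals and 1673 within pairs of 1 identifier series. Leaving out the first series, an alternative chosen after seeing the data, gave 2275 in SM. The replicate block pairs libraries by animal, and without it 2265 genes were called for the difference (1791 in AT, 668 in SM), 2073 of them in the same direction as with it, and 10 of the 60 named genes lost their call. Of the 22 lists with a negative median difference, 16 turned positive with library totals as the scale, which shifted the median of all genes, and no list turned the other way. Among them were the G1 cell cycle list (from -0.19 to 0.04), pyruvate and citric acid cycle genes (-0.19 to 0.04), fatty acid oxidation (-0.17 to 0.06), chromatin regulators (-0.13 to 0.09), vesicle traffic (-0.11 to 0.11) and translation factors (-0.03 to 0.19). The call was kept under every alternative for 27 of the 60 named genes. The cause of these moves was not tested. At the filter of 0.5 CPM a library holds few counts of a gene, which limits what can be detected there.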
